A study of Mus musculus with 6 samples.

Results

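The 10 genes described here are switched on in neurons after synaptic activity, and most of their products act outside the transcription machinery: Arc, Bdnf, Homer1, Nptx2, Inhba, Dusp1, Gadd45b, Btg2, Per1 and Sik1. They were chosen by gene symbol, with earlier results of these data known, and make up 10 of the 25814 genes in the authors' table. All 10 were among the 13947 genes with enough counts to be tested. Messenger RNA was sequenced from 6 libraries of primary neuron cultures of C57BL/6 mice that mixed cortical and hippocampal cells, grown in Neurobasal and DMEM with B27 and collected on day 18 in vitro. The 3 wild-type (WT) libraries and the 3 Tlr7-/- libraries shared this background, age in culture and medium, and the labels name no treatment. Tlr7 encodes an endosomal receptor for single-stranded RNA. Whether replicates of a genotype came from separate cultures or animals is not stated, so every p-value here reflects the spread between these libraries alone, which may be technical.

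Calcium that enters through NMDA receptors and voltage-gated channels activates kinases and phosphatases that act on the transcription factors CREB, SRF and MEF2, and these switch on a first set of genes within minutes. Some of those genes encode further transcription factors, such as Fos and the Egr family. Other genes induced by activity, the effector genes treated here among them, encode products such as secreted factors, synaptic scaffolds, phosphatases and kinases. Many such products change the synapse or limit the signal itself. In cultured neurons the level of the effector genes therefore depends on spontaneous network firing as well as on the cells present.

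The sequences before the start sites were searched for short elements that activity-regulated factors are known to bind. RefSeq (GRCm38.p6) gave 15 windows of 250 bases before a start for 7 of the 10 genes, 7 of them for Bdnf, and no entry was used for Arc, Nptx2 or Sik1. The full cAMP response element (CRE, TGACGTCA, the same on both strands) was in 2 windows, those of Dusp1 and Btg2, and in 1.55% of all 32851 windows. Its shorter core TGACG, searched on both strands and also part of the full element, was in 6 windows of 5 genes and in 17.8% of all windows. The E-box CACGTG was in the windows of Dusp1 and Gadd45b and in 1 of the Per1 windows, against 6.02% of all windows, and the serum response element known as the CArG box was in none of the 15 (1.47% of all windows). Printed here are windows of 4 genes whose counts in Tlr7-/- replicates 2 and 3 were below those of the other libraries and of Homer1, whose counts were not, with the letters of TGACG on either strand in capitals. A match describes the letters only.
Dusp1, chr17:26508473-26508722, minus strand: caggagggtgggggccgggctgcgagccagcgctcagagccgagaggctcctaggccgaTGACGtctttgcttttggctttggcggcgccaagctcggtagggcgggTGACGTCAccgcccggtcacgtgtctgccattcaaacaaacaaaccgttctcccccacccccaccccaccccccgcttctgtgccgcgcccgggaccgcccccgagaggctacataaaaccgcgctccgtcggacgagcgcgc
Btg2, chr1:134079156-134079405, minus strand: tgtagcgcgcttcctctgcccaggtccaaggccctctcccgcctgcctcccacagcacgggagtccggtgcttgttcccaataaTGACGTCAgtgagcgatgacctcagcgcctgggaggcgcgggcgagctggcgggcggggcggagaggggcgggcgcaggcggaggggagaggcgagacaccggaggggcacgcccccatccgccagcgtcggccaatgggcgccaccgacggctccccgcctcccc
Bdnf, window 3, chr2:109692186-109692435, plus strand: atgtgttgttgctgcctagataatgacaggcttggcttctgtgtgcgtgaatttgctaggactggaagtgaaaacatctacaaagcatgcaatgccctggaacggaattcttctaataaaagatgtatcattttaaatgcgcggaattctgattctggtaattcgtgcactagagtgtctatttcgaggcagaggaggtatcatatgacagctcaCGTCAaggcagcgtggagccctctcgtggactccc
Per1, window 2, chr11:69099902-69100151, plus strand: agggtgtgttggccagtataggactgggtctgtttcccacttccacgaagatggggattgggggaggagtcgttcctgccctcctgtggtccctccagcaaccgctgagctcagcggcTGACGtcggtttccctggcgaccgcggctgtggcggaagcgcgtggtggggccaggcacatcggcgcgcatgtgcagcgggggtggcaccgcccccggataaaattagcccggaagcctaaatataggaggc
Homer1, window 1, chr13:93303507-93303756, plus strand: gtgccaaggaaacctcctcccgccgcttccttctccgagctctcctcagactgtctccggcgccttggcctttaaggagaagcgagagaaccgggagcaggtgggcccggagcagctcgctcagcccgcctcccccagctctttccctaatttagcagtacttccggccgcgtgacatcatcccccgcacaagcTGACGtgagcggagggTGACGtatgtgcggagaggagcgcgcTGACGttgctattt

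In these windows the Dusp1 element begins 143 bases before the start and the Btg2 element 166 bases before it. The Homer1 window holds 3 copies of TGACG, at 56, 40 and 14 bases before the start, and no full element. The Bdnf window holds 1 copy, on the minus strand, at 35 bases. The windows with the letters therefore belong both to genes with lower counts and to Homer1.

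Counts assigned to genes came to 23272450 to 25696625 per library, so 3 counts, the limit that a count of 0 allows, correspond to 0.117 to 0.129 CPM (counts scaled to library size). Tlr7 itself had 3 to 8 counts in each library, WT and Tlr7-/- alike, and so does not check the genotype. The libraries of Tlr7-/- replicates 2 and 3 differed from the other 4 in several ways. Their library names in the labels are of another style, while replicate 1 is named like the WT libraries. The rank correlation across genes between GC content and a library's departure from the gene's mean level was -0.545 and -0.460 in replicates 2 and 3, and 0.306 to 0.513 in the other 4. Mitochondrial genes took 4.40% and 4.19% of their counts, against 2.60% to 3.14%. Genotype and naming style cannot be told apart in replicates 2 and 3, so each gene is given in every library, and the comparison of all 3 Tlr7-/- libraries with WT stands beside the comparison of replicate 1 alone and of replicates 2 and 3 alone. The shift with GC content moves with these contrasts. Values after removing the trend of GC content and transcript length in every library are given beside some of the genes that they moved. A gene given without such a value may have moved as well.

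The main pattern was shared by 9 of the 10 genes: their counts in Tlr7-/- replicates 2 and 3 were below those of all 4 other libraries, which was so for 30.4% of all tested genes, while Tlr7-/- replicate 1 lay among or above the WT libraries. The 10 genes together took 0.0672% to 0.102% of counts in the WT libraries, 0.0947% in Tlr7-/- replicate 1, but only 0.0315% and 0.0262% in replicates 2 and 3. Replicate 1 was within the WT range for 6 genes and above all 3 WT libraries for 4, namely Arc, Bdnf, Homer1 and Btg2, and 32% of tested genes were above all WT libraries in it. No gene was below all WT libraries in all 3 Tlr7-/- libraries. Homer1 was beyond the WT range in all 3, on the higher side by these counts, as 32.7% of tested genes were in either direction, and its fold change turned below 0 with the GC and length trend removed. In this bulk RNA, fewer cells of a type and less RNA per cell cannot be told apart.

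**Figure D1:**
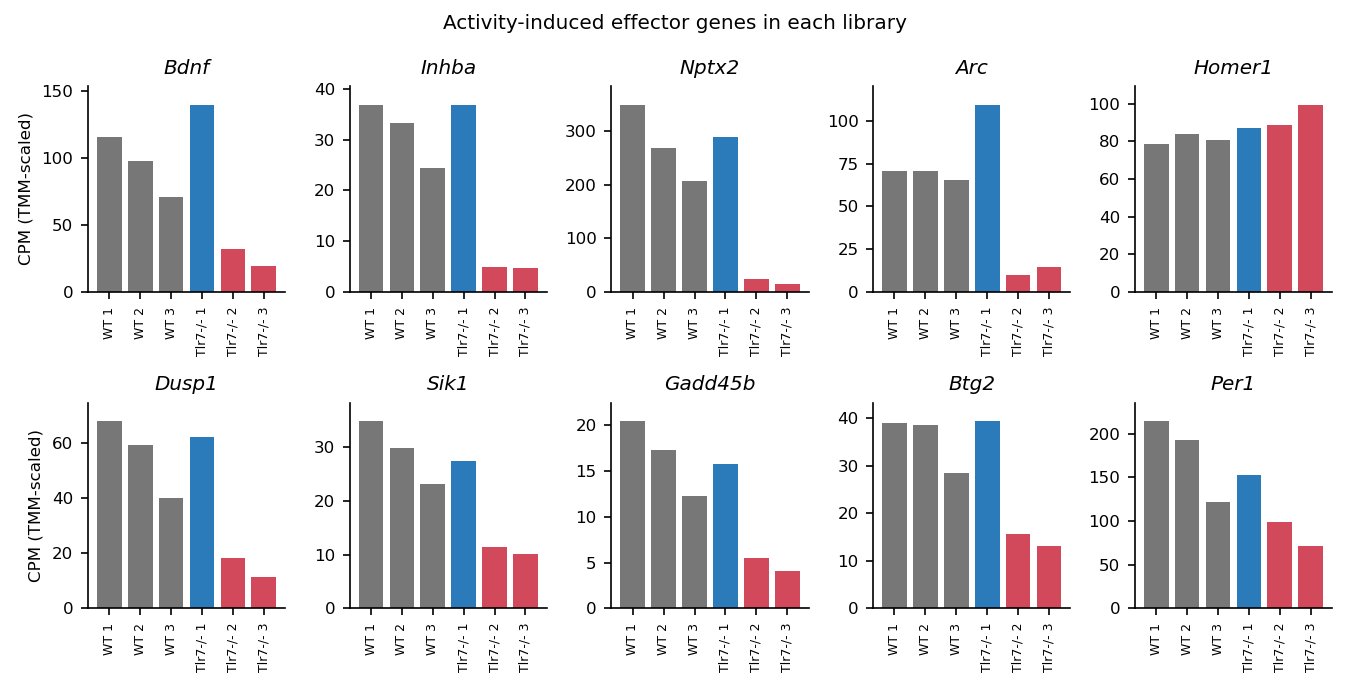
Normalised counts (CPM scaled by TMM, a scaling for library composition) of the 10 genes in each library, 1 bar per library, with WT in grey, Tlr7-/- replicate 1 in blue and Tlr7-/- replicates 2 and 3 in red. Red bars are the lowest in every panel but that of Homer1, and the blue bar of Arc, at 109 CPM, stands above the WT bars, which reach 70.9 CPM.

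Per length, as the authors' TPM, the order of the genes in WT neurons was led by Nptx2 at 308 ± 80.2 TPM (SD, n = 3), in the 96.1th percentile of tested genes. Per1 (89.2 ± 24.3 TPM), Dusp1 (79.8 ± 20.3 TPM) and Arc (64.4 ± 2.64 TPM) followed. Bdnf (43.2 ± 10.2 TPM), Btg2 (36.7 ± 6.19 TPM) and Gadd45b (34.6 ± 8.55 TPM) came next, and Homer1 (20.1 ± 0.623 TPM), Sik1 (18.4 ± 3.71 TPM) and Inhba (14.1 ± 2.84 TPM) were the lowest. The ranges of neighbours in this order overlapped, except between Nptx2 and Per1, between Arc and Bdnf and between Gadd45b and Homer1. In Tlr7-/- replicates 2 and 3, Nptx2 stood at 29.8 and 17.8 TPM, below Per1 at 55.2 and 39.0 TPM and close to Homer1 at 24.2 and 26.8 TPM.

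The WT libraries themselves were uneven for most of these genes. WT replicate 3 was the lowest WT library for 9 of the 10 genes, and WT replicate 1 the highest for 8. The ratio of the highest to the lowest WT library was 1.75 for Per1, 1.69 for Nptx2 and for Dusp1, 1.67 for Gadd45b and 1.63 for Bdnf. Arc and Homer1 were the steadiest, with ratios of 1.08 and 1.07.

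Bdnf, Inhba and Nptx2 encode secreted proteins. Bdnf (ENSMUSG00000048482, chr2:109674700-109727007, plus strand, GRCm38) encodes a neurotrophin that signals through the receptor TrkB. It measured 115, 97.3 and 70.6 CPM in WT, 140 CPM in Tlr7-/- replicate 1, and 32.3 and 19.1 CPM in replicates 2 and 3. Replicate 1 was the highest of the 6 libraries, and replicates 2 and 3 kept 34.2% and 20.2% of the WT mean. Against WT, replicates 2 and 3 were 3.68-fold lower (log2 fold change -1.88 ± 0.35 (SE), adjusted p = 0.0134, edgeR's quasi-likelihood test with Benjamini-Hochberg adjustment over all tested genes, as for every adjusted p here unless another tool is named). The call was lost without WT replicate 2, with an adjusted p of 0.0657. The counts are per gene and do not separate the 11 annotated transcripts of Bdnf, which start at several promoters.

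Inhba (ENSMUSG00000041324, chr13:16011851-16031621, plus strand) encodes the subunit whose dimer is activin A. It measured 36.9, 33.4 and 24.5 CPM in WT and 36.8 CPM in Tlr7-/- replicate 1, but 4.98 and 4.66 CPM in replicates 2 and 3. The pair lay far below the other 4 libraries and close to each other. The log2 fold change of replicates 2 and 3 against WT was -2.71 ± 0.19 (adjusted p = 2.68e-05), or 6.55-fold lower.

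Nptx2 (ENSMUSG00000059991, chr5:144545902-144557478, plus strand) encodes a pentraxin that is released at excitatory synapses and gathers AMPA receptors. It measured 349, 267 and 206 CPM in WT and 289 CPM in Tlr7-/- replicate 1. In replicates 2 and 3 it measured 24.0 and 14.5 CPM, which is 8.78% and 5.30% of the WT mean. This was the largest fall among the 10 genes, 14.2-fold (log2 fold change -3.83 ± 0.39, adjusted p = 0.00227), and among all 13947 tested genes it ranked 25th from the lowest fold change.

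Arc and Homer1 act at the postsynaptic site. Arc (ENSMUSG00000022602, chr15:74669083-74672570, minus strand) encodes a capsid-like protein that promotes the uptake of AMPA receptors together with endophilin and dynamin. It measured 70.7, 70.9 and 65.6 CPM in WT, 109 CPM in Tlr7-/- replicate 1, and 9.96 and 14.4 CPM in replicates 2 and 3. The Tlr7-/- libraries therefore lay on both sides of a narrow WT range. Replicates 2 and 3 were 5.65-fold lower than WT (log2 fold change -2.50 ± 0.14, adjusted p = 8.22e-06). Arc was also the only one of the 9 genes with its lowest value in replicate 2 rather than replicate 3, which was 1.45 times as high.

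Homer1 (ENSMUSG00000007617, chr13:93299635-93405129, plus strand) encodes scaffolds that join metabotropic glutamate receptors to Shank proteins. Its activity-induced short form, Homer1a, competes with the constitutive long forms, and counts per gene do not separate the 12 annotated transcripts. It measured 78.8, 84.0 and 80.9 CPM in WT, 86.9 CPM in Tlr7-/- replicate 1, and 88.6 and 99.4 CPM in replicates 2 and 3. All 3 Tlr7-/- libraries lay above WT by a small margin. The log2 fold change of replicates 2 and 3 against WT was 0.21 ± 0.07 (adjusted p = 0.0296), but -0.54 (adjusted p = 0.00117) with the GC and length trend removed, so its direction depended on that trend. The call was also lost without WT replicate 1 (adjusted p = 0.0927), WT replicate 2 (adjusted p = 0.0639), WT replicate 3 (adjusted p = 0.0507) or Tlr7-/- replicate 3 (log2 fold change 0.13, adjusted p = 0.194). At 36.9% GC its longest transcript is in the 1.01th percentile of tested genes, the lowest of the 10.

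Dusp1 and Sik1 limit signalling. Dusp1 (ENSMUSG00000024190, chr17:26505590-26508519, minus strand) encodes a phosphatase that switches off MAP kinases. It measured 67.9, 59.3 and 40.1 CPM in WT, 62.0 CPM in Tlr7-/- replicate 1, and 18.4 and 11.4 CPM in replicates 2 and 3. Replicate 1 lay inside the WT range and the other pair below it. The log2 fold change of the pair was -1.91 ± 0.34 (adjusted p = 0.0114), and without WT replicate 2 the adjusted p was 0.0504.

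Sik1 (ENSMUSG00000024042, chr17:31844248-31855792, minus strand) encodes a kinase that keeps the CREB coactivators of the CRTC family out of the nucleus. It measured 34.8, 29.8 and 23.0 CPM in WT, 27.4 CPM in Tlr7-/- replicate 1, and 11.4 and 10.2 CPM in replicates 2 and 3. The pair was 2.71-fold lower than WT (log2 fold change -1.44 ± 0.17, adjusted p = 0.000274).

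Gadd45b, Btg2 and Per1 act in the nucleus or on RNA. Gadd45b (ENSMUSG00000015312, chr10:80930073-80932204, plus strand) encodes a stress-induced protein linked in neurons to activity-dependent DNA demethylation. It was the scarcest of the genes by CPM in every library but Tlr7-/- replicate 2, where Inhba was lower. It measured 20.5, 17.3 and 12.3 CPM in WT, 15.8 CPM in Tlr7-/- replicate 1, and 5.53 and 4.13 CPM in replicates 2 and 3. Replicates 2 and 3 were lower than WT by a log2 fold change of -1.79 ± 0.24 (adjusted p = 0.000512).

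Btg2 (ENSMUSG00000020423, chr1:134075170-134079120, minus strand) encodes an antiproliferative protein that recruits the CCR4-NOT deadenylase to messenger RNA. It measured 39.0, 38.7 and 28.4 CPM in WT, 39.4 CPM in Tlr7-/- replicate 1, and 15.7 and 13.2 CPM in replicates 2 and 3. The pair kept 44.4% and 37.2% of the WT mean (log2 fold change -1.29 ± 0.16, adjusted p = 0.00028).

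Per1 (ENSMUSG00000020893, chr11:69095217-69109960, plus strand) encodes a repressor of the circadian clock that calcium and cAMP signals also induce. It measured 214, 193 and 122 CPM in WT, 153 CPM in Tlr7-/- replicate 1, and 98.7 and 70.7 CPM in replicates 2 and 3. Replicate 2 came closer to WT replicate 3, as a ratio, than for any other of the 9 genes. Its log2 fold change, -1.06 ± 0.32, missed the threshold (adjusted p = 0.0572). Per1 was called lower by DESeq2, by limma-voom and without WT replicate 3 (adjusted p = 0.00182), and its log2 fold change was -0.73 with the GC and length trend removed (adjusted p = 0.19).

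Set against the genotype as a whole, the study's own comparison, none of the 10 genes passed the test. The log2 fold change of all 3 Tlr7-/- libraries against WT was below 0 for 9 of the 10, with a median of -0.78 beside 0.0014 over all tested genes. Per1 had the smallest adjusted p, with -0.72 ± 0.31 (adjusted p = 0.183), followed by Sik1 with -0.84 ± 0.38 (adjusted p = 0.196). Nptx2 had the largest difference, with 274 ± 71.6 CPM in WT and 109 ± 156 CPM in Tlr7-/- (SD, n = 3 each), so that the log2 fold change was -1.33 ± 1.04 (adjusted p = 0.413). Arc stood at 69.1 ± 2.99 CPM in WT and 44.6 ± 56.2 CPM in Tlr7-/- (log2 fold change -0.63 ± 0.83, adjusted p = 0.63). The SD within the Tlr7-/- group exceeded the mean for Arc, Bdnf, Nptx2 and Inhba.

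By edgeR the share of all tested genes called in this comparison was 0%, with 3932 genes and 0 of the 10 at an unadjusted p under 0.05. DESeq2 called 1754 genes and limma-voom 0. DESeq2 called none of the 9 genes to which it gave an adjusted p, which left out Arc, and limma-voom called none of the 10. In the authors' deposited table, also from edgeR, 465 of 27420 genes had a false discovery rate under 0.05 and none of the 10 was among them. There the authors' deposited table gives Per1 a log2 fold change of -0.76 with a false discovery rate of 0.11, and Nptx2 -1.33 with 0.395. Without Tlr7-/- replicate 1 the count of the 10 called by edgeR was 9 (8 lower, against 24.7% of the 14107 genes tested in that fit, and Homer1 higher, against 24.3%, a direction that turned with the GC and length trend removed).

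Tlr7-/- replicate 1 shares its naming style with WT, and its comparison with WT equals the genotype effect with naming style as a covariate. As 1 library, it is assumed to vary like the others. None of the 10 genes was called, by edgeR, against 1.43% of all tested genes (0.545% lower and 0.889% higher, but 0.237% and 0.222% by limma on log2(TPM + 1)), and 1 of the 10, Arc, had an unadjusted p under 0.05. The log2 fold change of Arc was 0.66 ± 0.14 and missed the threshold (adjusted p = 0.06). It was called higher by DESeq2 (adjusted p = 0.00151), by limma-voom (adjusted p = 0.0417), with no filter on low counts (adjusted p = 0.0468), with the GC and length trend removed (adjusted p = 0.0385), without Tlr7-/- replicate 2 (adjusted p = 0.0121) and without replicate 3 (adjusted p = 0.0132). Over all alternatives its adjusted p ran from 0.00151 to 0.199 and its log2 fold change from 0.63 to 0.72.

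The other 9 genes in replicate 1 were not called under any alternative run for that comparison. Bdnf stood at a log2 fold change of 0.56 ± 0.38 (adjusted p = 0.561), and the other 8 between -0.21 ± 0.39 for Per1 and 0.22 ± 0.19 for Inhba, which was at 0.12 with the trend removed. The median over the 10 was 0.13.

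Tlr7-/- replicates 2 and 3 against WT gave 8 of the 10 genes lower, against 25.2% of all tested genes, and 1 higher, Homer1, against 24.4%, which was lower with the GC and length trend removed. The median log2 fold change of the 10 was -1.83, beside -0.0020 over all tested genes. With the trend removed, 9 were lower, against 17.1% of tested genes, and none higher, against 15.5%, with a median of -1.52. In limma on log2(TPM + 1) the same 8 lower and 1 higher counts of the 10 stood against 17.5% of genes lower and 34.1% higher. With the GC and length trend removed, Gadd45b moved from -1.79 to -1.33, Dusp1 from -1.91 to -1.68, Arc from -2.50 to -2.11 and Nptx2 from -3.83 to -3.44. Inhba moved from -2.71 to -3.20 and Bdnf from -1.88 to -2.26. The GC-rich genes Arc (59.0%) and Nptx2 (58.3%) and the GC-poor genes Bdnf (40.9%) and Inhba (41.4%) were called lower, with and without the trend. The most GC-rich of the 10, Per1 (59.4%), was called in neither fit. The most GC-poor, Homer1 (36.9%), was called higher with the trend in place and lower with it removed. The part of GC content in these differences was not tested.

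The same pair against Tlr7-/- replicate 1 compares libraries of 1 genotype. Here 8 of the 10 genes were lower, against 16.6% of all tested genes, and none was higher, against 15%. Nptx2 fell by 3.91 ± 0.43 on the log2 scale (adjusted p = 0.00652), Arc by 3.16 ± 0.16 (adjusted p = 1.52e-05) and Inhba by 2.93 ± 0.22 (adjusted p = 0.000112). Bdnf, Dusp1, Gadd45b, Btg2 and Sik1 also passed, with log2 fold changes from -2.44 to -1.34. Of these calls, that of Dusp1 was lost with no filter (adjusted p = 0.0619), without WT replicate 2 (adjusted p = 0.0737) and without Tlr7-/- replicate 3 (adjusted p = 0.0604), and that of Bdnf without WT replicate 2 (adjusted p = 0.068). In limma on log2(TPM + 1) 11.6% of tested genes were lower and 20.3% higher, and 8 of the 10 were again lower. Per1 did not pass, at -0.85 ± 0.41 (adjusted p = 0.2, or -0.53 with the trend removed) though it did without WT replicate 3 (adjusted p = 0.0225), nor did Homer1, at 0.11 ± 0.09 (adjusted p = 0.38), which was -0.52 (adjusted p = 0.00904) with the trend removed. Differences of this size therefore lay within the Tlr7-/- genotype itself. These comparisons share libraries, so their values stand side by side and are not independent.

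**Figure D2:**
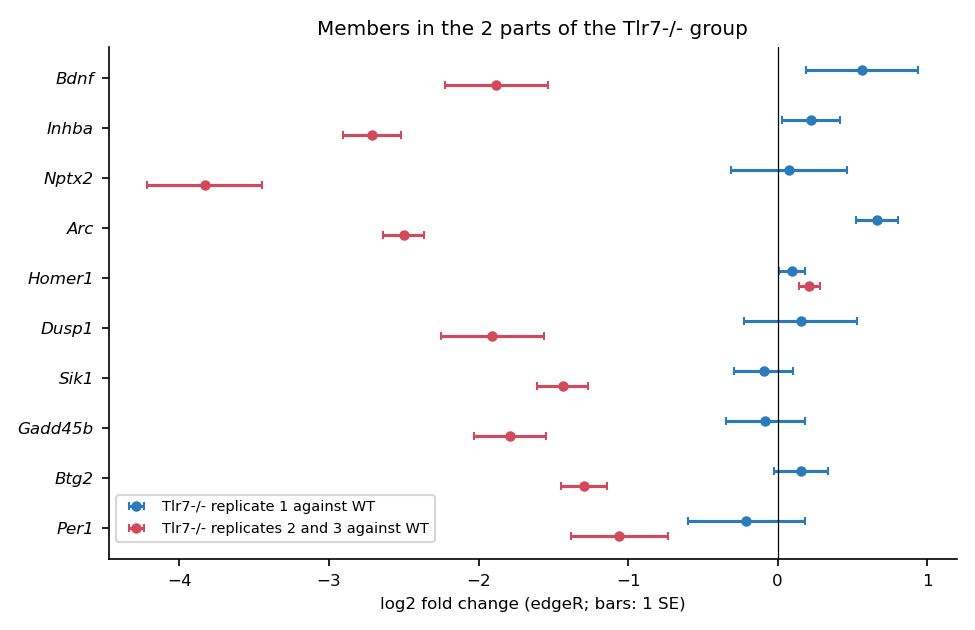
log2 fold changes against WT of Tlr7-/- replicate 1 (blue) and of Tlr7-/- replicates 2 and 3 (red) for each gene, from edgeR, with bars of 1 SE on the horizontal axis. Blue points run from -0.21 to 0.66 and red points from -3.83 to 0.21. Homer1, whose red point turns to -0.54 with the GC and length trend removed, is the only gene with both points above 0.

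Genes related by sequence to the 10 were compared in the same libraries. Of 22 such genes, all tested, 11 were lower in Tlr7-/- replicates 2 and 3 against WT, beside 25.2% of all tested genes. Only 1 was higher, beside 24.4%, and 10 did not pass, with a median log2 fold change of -0.31. With the GC and length trend removed 10 were lower and 2 higher, beside 17.1% and 15.5% of all tested genes. Gadd45g had 52.3, 53.8 and 39.8 CPM in WT, 50.6 CPM in Tlr7-/- replicate 1, and 6.33 and 7.16 CPM in replicates 2 and 3, a log2 fold change of -2.85 ± 0.16 (adjusted p = 8.22e-06) that was below that of Gadd45b itself, and -2.12 with the trend removed. Gadd45a stood at -0.91 ± 0.29 (adjusted p = 0.0269), and at -0.63 with the trend removed.

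Among the neuronal pentraxins, Nptx1 fell by 0.70 ± 0.08 on the log2 scale (adjusted p = 0.000158) and the pentraxin receptor Nptxr fell by 0.61 ± 0.06 (adjusted p = 8.42e-05), beside a log2 fold change of -3.83 for Nptx2, and the value of Nptxr was -0.30 with the trend removed. Inhbb, the other activin subunit, measured 14.8 to 18.9 CPM in WT and 13.2 and 17.7 CPM in replicates 2 and 3 (log2 fold change -0.09 ± 0.15, adjusted p = 0.646, and 0.41 with the trend removed). The neurotrophin Ntf3 did not pass (0.34 ± 0.20, adjusted p = 0.189, and 0.54 with the trend removed). Sik2 was lower by -0.75 ± 0.11 (adjusted p = 0.000497). Of the Period genes, Per2 did not pass (-0.19 ± 0.09, adjusted p = 0.113) and Per3 was higher (0.53 ± 0.08, adjusted p = 0.000724). Of the Homer genes, Homer2 did not pass (0.11 ± 0.12, adjusted p = 0.488, and -0.41 with the trend removed), and Homer3 was lower at -0.56 ± 0.11 (adjusted p = 0.00211) but at -0.01 with the GC and length trend removed. The difference between a gene and its relatives was not tested.

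**Figure D3:**
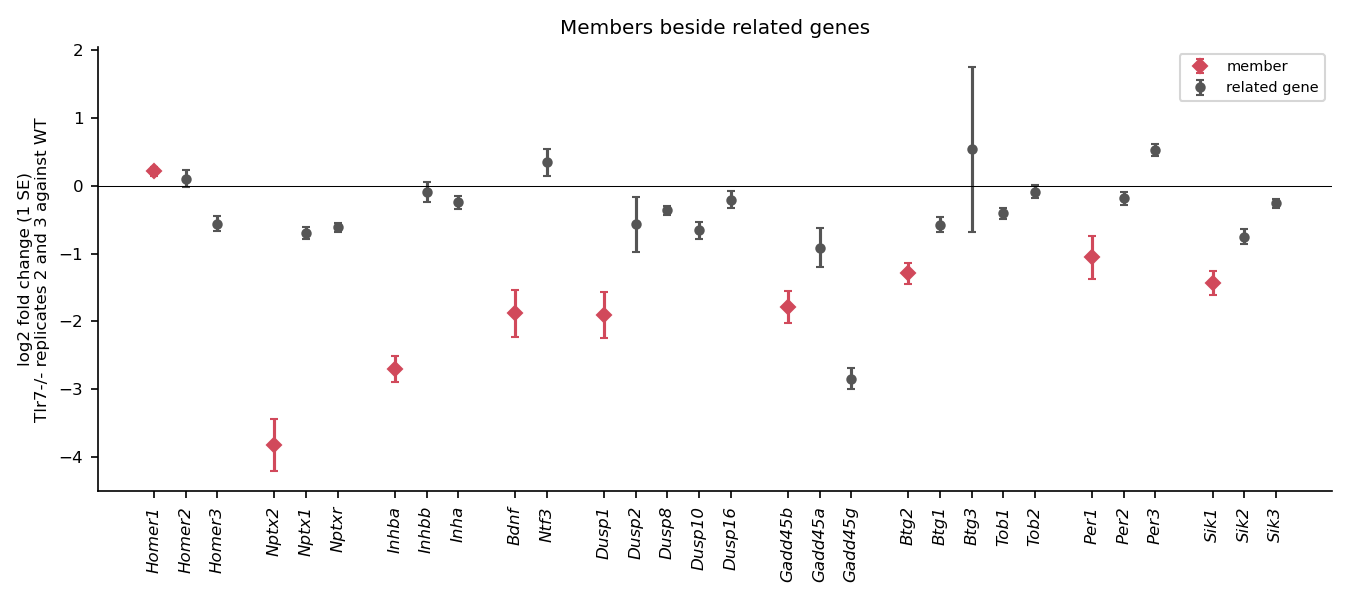
log2 fold changes, with bars of 1 SE, of Tlr7-/- replicates 2 and 3 against WT for the genes with related genes on the list (red diamonds) and their relatives (grey circles), family by family, with 1 relative of the list not drawn. Red diamonds lie below the grey circles of their family except for Homer1, which lies highest in its family in this uncorrected fit and at -0.54 with the GC and length trend removed, and for Gadd45b at -1.79, with Gadd45g at -2.85.

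Receptors and partners of the 10 genes showed no common direction. Of 29 receptors, binding partners and targets, 7 were lower in Tlr7-/- replicates 2 and 3 against WT, beside 25.2% of all tested genes. Another 11 were higher, beside 24.4%, and 11 did not pass, with a median log2 fold change of 0.06. With the GC and length trend removed 5 were lower and 3 higher, beside 17.1% and 15.5% of all tested genes. The BDNF receptor Ntrk2 measured 1102 to 1225 CPM over the WT libraries, and its log2 fold change was -0.05 ± 0.07 (adjusted p = 0.549), and -0.37 with the trend removed. The activin receptor Acvr2a was higher at 0.88 ± 0.11 (adjusted p = 0.000285), and at 0.35 with the trend removed. The metabotropic receptor Grm5, which Homer proteins bind, was higher at 0.55 ± 0.08 (adjusted p = 0.000683), and at 0.05 with the trend removed. Mapk3, a kinase of the pathway that DUSP1 family phosphatases act on, was lower at -0.37 ± 0.06 (adjusted p = 0.000708), and at 0.05 with the trend removed. Sh3gl1, an endophilin, was lower at -0.52 ± 0.07 (adjusted p = 0.000217).

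Of 22 activity-induced transcription factors, 19 were lower in Tlr7-/- replicates 2 and 3 against WT, beside 25.2% of all tested genes, none was higher and 3 did not pass (Egr1, Egr3 and Klf10), with a median log2 fold change of -1.82. With the GC and length trend removed 18 were lower, beside 17.1% of all tested genes, and none higher. Atf3 measured 46.5, 52.4 and 34.4 CPM in WT, 29.8 CPM in Tlr7-/- replicate 1, and 6.12 and 4.13 CPM in replicates 2 and 3, a log2 fold change of -3.12 ± 0.25 (adjusted p = 0.000157). The orphan nuclear receptor Nr4a2 (-1.56 ± 0.15, adjusted p = 4.85e-05) and the repressor Nfil3 (-2.28 ± 0.37, adjusted p = 0.0081) were also lower. Egr3 was not, at 0.13 ± 0.08 (adjusted p = 0.22). Npas4, a transcription factor specific to neuronal activity, was chosen after its values were seen and measured 207, 202 and 124 CPM in WT, 159 CPM in Tlr7-/- replicate 1, and 14.9 and 13.7 CPM in replicates 2 and 3. In replicate 1 against WT, which rests on 1 library, the median log2 fold change of these 22 genes was 0.13, beside -0.0041 over all tested genes.

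Of 25 other activity-induced effectors, 19 were lower in Tlr7-/- replicates 2 and 3 against WT, beside the same 25.2%. None was higher and 6 did not pass, with a median of -0.78. With the trend removed 16 were lower, beside 17.1% of all tested genes. Nrn1, a secreted neurite growth factor, was lower at -0.68 ± 0.09 (adjusted p = 0.000359) and the G protein regulator Rgs2 at -1.30 ± 0.13 (adjusted p = 0.000121). The small GTPases Rheb (-0.69 ± 0.09, adjusted p = 0.000372) and Arl4d (-1.72 ± 0.25, adjusted p = 0.00213) were also lower. With the trend removed, Rheb stood at -0.86 and Arl4d at -1.33. All of the lists were chosen with earlier results of these data known. In the comparison of all 3 Tlr7-/- libraries with WT no gene of any list was called.

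Genes for the machinery that reads the calcium signal were called in both directions. The list held 31 genes for calcium channels, NMDA receptor subunits, kinases and CREB, SRF and MEF2 factors. Of these, 5 were lower in Tlr7-/- replicates 2 and 3, beside 25.2% of all tested genes, and 15 higher, beside 24.4%. The other 11 did not pass, and the median was 0.18. With the trend removed 4 were lower and 11 higher, beside 17.1% and 15.5% of all tested genes. These are RNA levels, and their part in the lower counts of the effector genes was not tested. The NMDA receptor subunit Grin2b was higher at 1.08 ± 0.05 (adjusted p = 2.9e-06), with 525 to 552 CPM in WT, 705 CPM in Tlr7-/- replicate 1 and 1126 and 1138 CPM in replicates 2 and 3, and its value was 0.38 with the trend removed. Grin2a was higher at 0.69 ± 0.06 (adjusted p = 3.07e-05), and at 0.10 with the trend removed. The kinases Rps6ka3 (0.82 ± 0.10, adjusted p = 0.000234) and Prkacb (0.35 ± 0.07, adjusted p = 0.00298) were higher, at 0.25 and 0.17 with the trend removed.

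Per1, Dusp1, Gadd45b and Sik1 are also induced by other signals, so glucocorticoid-responsive genes and clock genes were described beside them. Of 15 glucocorticoid-responsive genes, 7 were lower in Tlr7-/- replicates 2 and 3, 3 higher and 5 did not pass (median -0.40). With the trend removed 5 were lower and 1 higher. Over all tested genes 25.2% were lower and 24.4% higher, or 17.1% and 15.5% with the trend removed. Ddit4, an inhibitor of mTOR signalling, was lower at -1.41 ± 0.08 (adjusted p = 5.56e-06), and at -0.97 with the trend removed. Errfi1 was lower at -0.55 ± 0.11 (adjusted p = 0.00333). The glucocorticoid receptor Nr3c1 was higher at 0.67 ± 0.09 (adjusted p = 0.000251), and at 0.23 with the trend removed, and Klf9 was higher at 0.22 ± 0.06 (adjusted p = 0.0102), and at 0.09 with the trend removed. Of 15 clock genes, 5 were lower and 5 higher, beside the same 25.2% and 24.4%, and 5 did not pass (median -0.06). With the trend removed 1 was lower and 4 higher, beside 17.1% and 15.5%. Clock was higher at 0.89 ± 0.09 (adjusted p = 8.24e-05), and at 0.25 with the trend removed, Nr1d2 was higher at 0.74 ± 0.08 (adjusted p = 7.68e-05), and at 0.40, and Cry1 was lower at -0.50 ± 0.14 (adjusted p = 0.016). Ciart, a clock repressor, was lower in replicate 1 (-1.23 ± 0.21, adjusted p = 0.0341) as well as in replicates 2 and 3 (-0.60 ± 0.16, adjusted p = 0.0111, and -0.36 with the trend removed).

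**Figure D4:**
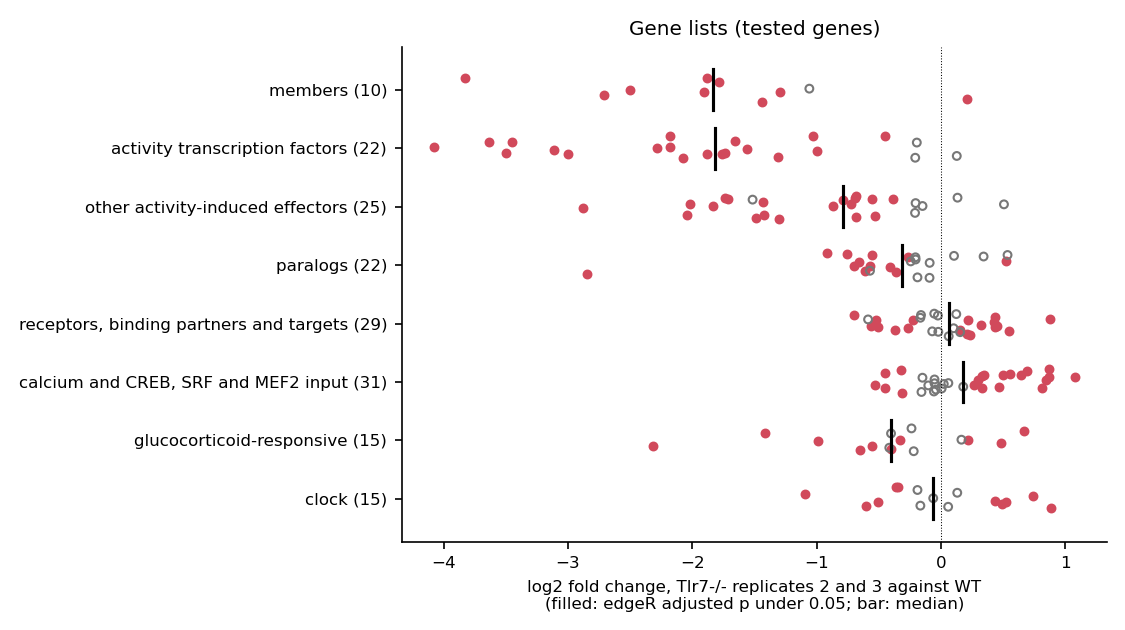
log2 fold changes of Tlr7-/- replicates 2 and 3 against WT for the tested genes of each list, 1 point per gene, filled where the edgeR adjusted p is under 0.05, with a bar at the median and the number of genes in brackets. The medians of the 10 genes (-1.83) and of the activity-induced transcription factors (-1.82) lie farthest from 0, and those of the partners (0.06) and the clock genes (-0.06) near it.

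Over the 6 libraries the profiles of the 10 genes were alike except that of Homer1. The correlation of a gene's log2 CPM with the mean of the other members was 0.998 for Btg2, 0.991 for Inhba, 0.987 for Dusp1, 0.986 for Gadd45b, 0.985 for Sik1, 0.983 for Nptx2 and 0.977 for Bdnf. It was lower for Arc (0.945) and Per1 (0.912), and -0.817 for Homer1 before any removal of the GC trend. These correlations describe 6 libraries, of which a pair stands apart. Among 1652 other genes with an SD of log2 CPM of at least 0.5, 393 correlated with the members' mean above 0.9 and 23 above 0.99, so a close match is common in these libraries. The 10 closest were Nop53, Klf14, Klf4, Csrnp1, Pthlh, Alkal2, Adamts1, Csrp2, Nr4a1 and Nedd9, with r from 0.997 to 0.995, and 3 of them (Klf4, Csrnp1 and Nr4a1) were on the list of activity-induced transcription factors. Nr4a1 measured 119, 113 and 71.8 CPM in WT, 126 CPM in Tlr7-/- replicate 1, and 35.1 and 24.8 CPM in replicates 2 and 3.

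Summed markers of some cell types in the cultures differed more between the same libraries than those of others. A sum can hide markers called in opposite directions. The summed TPM of 10 neuronal markers ran from 5409 to 5603 in WT. It stood at 5184 TPM for Tlr7-/- replicate 1 and at 5194 and 5477 TPM for replicates 2 and 3. In replicates 2 and 3 against WT, 5 of these 10 were called lower and 4 higher. Over all tested genes 25.2% were lower and 24.4% higher there, shares that stand beside every marker count in this paragraph. Marker counts with the GC and length trend removed are not given. The sum of 7 excitatory markers was 1927 to 2014 in WT, 1951 in replicate 1 and 1939 and 2181 in replicates 2 and 3. There 2 were called lower and 2 higher. The sum of 7 inhibitory neuron markers was 1993 to 2103 in WT, 1852 in replicate 1 and 1099 and 1175 in replicates 2 and 3, where 3 were lower and 2 higher. The sum of 10 oligodendrocyte lineage markers was 962 to 1024 in WT, 744 in replicate 1 and 490 and 611 in replicates 2 and 3, where 7 of 9 tested were lower and none higher. The sum of 5 hippocampal markers was 233 to 246 in WT, 331 in replicate 1 and 185 and 198 in replicates 2 and 3, where 1 marker was called lower and 2 higher. The sum of 8 astrocyte markers was 3215 to 3402 in WT, 2798 in replicate 1 and 3508 and 3232 in replicates 2 and 3. Of these, 2 were called lower and 2 higher in replicates 2 and 3. The sum of 8 microglial markers was 3.50, 1.91 and 23.3 TPM in WT, 3.80 TPM in Tlr7-/- replicate 1, and 32.8 and 20.5 TPM in replicates 2 and 3, where 1 of 4 tested was called higher. It was therefore higher in replicates 2 and 3 and in WT replicate 3, the lowest WT library for 9 of the 10 genes, than in the other 3 libraries. The sum of 8 endothelial and mural markers was 28.5 to 32.4 TPM in WT, 31.3 TPM in replicate 1 and 31.7 and 35.7 TPM in replicates 2 and 3. None of the 6 tested was called in replicates 2 and 3. The sum of 5 fibroblast and meningeal markers was 15.2 to 16.6 TPM in WT, 29.9 TPM in replicate 1 and 12.4 and 8.67 TPM in replicates 2 and 3. Of 4 tested, 1 was called lower in replicates 2 and 3 and none higher. No marker was at 0 in all libraries. The part of these marker differences in the lower counts of the 9 genes was not tested.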

How the data were processed

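Per the labels, RNA was extracted with Trizol, the library kit was TruSeq Stranded mRNA LT and the sequencer a NextSeq500. The submitters' processing notes name GRCm38.p6, bcl2fastq, HISAT2, featureCounts and edgeR, with no versions or roles, and the strand setting of the counting is not given in the sources used here. Per the file headers the authors deposited raw counts per gene, RPKM (checked, not used further) and TPM (scaled per length) in 1 table. The authors' deposited second table holds log2 fold changes, mean log2 CPM, p-values and false discovery rates, and its model is not stated.

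Genes were filtered with filterByExpr and scaled by TMM. They were tested in R 4.3.3 with edgeR 4.0.16 (glmQLFit with robust=TRUE, two-sided glmQLFTest), adjusted by Benjamini-Hochberg over all 13947 genes at a threshold of 0.05. A fit of 2 groups compared the genotypes. A fit of 3 groups (WT, Tlr7-/- replicate 1, Tlr7-/- replicates 2 and 3, split by the style of the library names) gave the other 3 comparisons, with the spread pooled. The SE is the log2 fold change divided by the root of F. CPM values are TMM-scaled. The floor of 3 counts is at the 95% level and covers counting error only.

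GC content and length of the longest transcript came from GENCODE M21, matched for 99.9% of genes in the table, 94.8% of them at the same position. Their trends in each library were removed as offsets by natural splines with 5 degrees of freedom. Other alternatives were DESeq2 1.42.0, limma-voom and limma 3.58.1 on log2(TPM + 1) or log2(TPM + 0.1), other scalings, no filter, a replicate block, and each library left out. The scripts were tested on simulated data. No column of another series was in the tables. Same-numbered libraries deviated together with correlations of 0.241, -0.0839 and 0.264, and the labels name no pairing.

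Members and lists were chosen with earlier results of these data known. Named beyond the 10 genes were up to 4 genes per list with the smallest p in the comparison of genotypes, relatives and partners of members, and the 10 most alike genes. Of the 10 genes, Homer1 overlaps other annotated genes, which had 0 counts. The values of 1 gene on the list of relatives are not reported here. Figures were drawn with matplotlib 3.10.9.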

Additional observations from a re-analysis of the deposited data

How the results depend on the processing

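For all 3 Tlr7-/- libraries against WT, 0 of the 10 genes were called, and 0 with the replicate block (Arc -1.46 on the log2 scale, adjusted p = 0.226). The labels name no pairing of same-numbered libraries, so whether they were paired is not known. The fit of 3 groups, taking the mean of the Tlr7-/- libraries, called 9 (8 lower, 1 higher), beside 20.9% of all tested genes lower and 19.7% higher, because it takes the difference between the parts of the group out of the spread. Leaving out 1 library gave 0 to 9, with 9 without Tlr7-/- replicate 1. For Tlr7-/- replicate 1 against WT, 0 of the 10 were called, beside 1.43% of all tested genes. DESeq2, limma-voom, no filter and removal of the GC and length trend each called 1 of the 10, Arc. These fits called 3.19%, 0.903%, 1.97% and 1.43% of the genes tested in them, in that order. Leaving out any 1 WT library called none of the 10. In replicates 2 and 3 against WT, 9 genes were called, beside 49.6% of all tested genes. DESeq2 and limma-voom each called 10, beside 43.9% and 49.7% of all tested genes. Of the fits with 1 library left out, that without WT replicate 2 called the fewest, 6, beside 37.5% of the genes tested in it. Against replicate 1, 8 were called, beside 31.6% of all tested genes, and 9 with the trend removed, beside 18.7%. With 1 WT library left out 6 to 9 were called, beside 22.9% to 34.2% of the genes tested in those fits. Homer1 reversed with the trend removed, to -0.35, -0.024, -0.54 and -0.52 on the log2 scale in the 4 comparisons in the order above. In replicate 1 against WT, where no call was made, Gadd45b reversed to 0.044 with the trend removed. Leaving out 1 library there gave -0.26 to 0.093 for Gadd45b, -0.24 to 0.053 for Sik1, -0.037 to 0.32 for Dusp1 and -0.093 to 0.29 for Nptx2. The cause of these reversals was not tested. TPM-based fits moved the median of all genes in replicates 2 and 3 against WT to 0.11 and 0.13 on the log2 scale, and the count of genes called in that comparison was 6915, or 4546 with the trend removed. Single genes kept their direction and side of the threshold in 141, 118, 130 and 124 gene and setting pairs of the 4 comparisons. The 141 include Arc by DESeq2, which kept its direction but had no adjusted p there. In the same order, the direction reversed in 1, 6, 1 and 1 pairs and a call was gained in 18, 6, 3 and 1. A call was lost in 6 pairs for replicates 2 and 3 against WT and in 4 against replicate 1. Each contrast within the knockout group rests on 1 or 2 libraries a side, and the effect of depth was not tested.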

Other observations

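Tlr7-/- replicate 1, which is 1 library, held a small group of activity-related genes above WT, chosen here after their values were seen. They were 3 of the 22 activity-induced transcription factors and 3 of the 25 other effectors, with 0 called lower. Over all tested genes 0.889% were called higher and 0.545% lower in that comparison. The values of these genes with a library left out are not given. Egr1 measured 79.5, 79.4 and 65.2 CPM in WT, 136 CPM in Tlr7-/- replicate 1, and 61.0 and 68.5 CPM in replicates 2 and 3, and was higher in replicate 1 by a log2 fold change of 0.87 ± 0.12 (adjusted p = 0.0155, edgeR). Egr2 (1.11 ± 0.13, adjusted p = 0.0112) and Egr3 (0.65 ± 0.10, adjusted p = 0.0237) were higher too. Spry2 (0.47 ± 0.09, adjusted p = 0.042) and Spry4 (0.70 ± 0.12, adjusted p = 0.0328), feedback inhibitors of growth factor signalling, and the sorting receptor Sorcs3 (0.74 ± 0.12, adjusted p = 0.03) were the other activity-induced effectors called higher. In the same library Arc, Bdnf, Homer1 and Btg2 were above all 3 WT libraries, as 32% of all tested genes were. For Btg2 the margin was small, at 39.4 CPM beside 39.0 CPM in the highest WT library. Nptx2, Dusp1, Gadd45b, Per1, Sik1 and Inhba were inside the WT range.

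Egr1 and Egr3 were among the 3 activity-induced transcription factors not called lower in replicates 2 and 3 against WT (Egr1 -0.21 ± 0.10, adjusted p = 0.11, and -0.03 with the GC and length trend removed; Egr3 0.13 ± 0.08, adjusted p = 0.22), where Npas4 was lower at -3.63 ± 0.32 (adjusted p = 0.00125). Egr2 was lower there, with 4.98 and 4.66 CPM beside 9.16 to 10.2 CPM in WT (adjusted p = 0.000199). Spry2 (-0.53 ± 0.08, adjusted p = 0.000412) and Spry4 (-0.55 ± 0.11, adjusted p = 0.00219) were lower by less than Arc.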
